A study of Homo sapiens with 2 samples.

Results

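NRAS, BRAF and 7 genes known as feedback regulators or transcriptional outputs of the MAPK cascade (DUSP4, DUSP6, SPRY2, SPRY4, ETV4, ETV5 and EPHA2) were followed in 2 cell lines. The 9 genes were chosen by symbol, with earlier results of these data known. Each had 1 row among the 27685 genes listed, and 22 of the 63714 listed transcripts belonged to them. The data were 1 RNA-seq library of untreated H2087 cells and 1 of untreated H596 cells, both established cell lines whose labels give lung adenocarcinoma as the cell type. The labels name no introduced allele or agent for either line, and both were grown in the same serum-containing medium. Stranded mRNA libraries were aligned to hg19, and each gene was deposited by the authors with estimated reads and with FPKM (fragments scaled to the length of the transcript and the size of the library, a level per length). The total estimated count was 46961500 in H2087 and 55387847 in H596.

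RAS proteins such as NRAS are membrane-bound GTPases that, when loaded with GTP, bind RAF kinases such as BRAF, which pass the signal to the kinases MEK and ERK. Active ERK raises transcription of its own antagonists, among them the DUSP phosphatases that remove phosphate from MAP kinases and the Sprouty proteins that restrain the pathway upstream. ERK signaling also raises the ETV factors of the PEA3 family, which bind GGAA-centred DNA, and in lung tumors the RNA of these genes is widely used as a readout of pathway output.

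To show the DNA next to feedback genes that were lower in H596, the 200 bases before a listed transcript start were read. They come from GRCh37, which has the coordinates of hg19. For each gene the transcript with the highest FPKM summed over both lines was taken. DUSP6, SPRY2 and SPRY4 were 9.92-fold to 333-fold lower in H596 by FPKM and are printed beside EPHA2, which was higher there. The SPRY4 window lies before NM_001127496, which had 0 counts in H596. The SPRY4 counts of H596 were assigned to NM_001293289, whose listed start is chr5:141703982. All 4 windows are on the minus strand, at chr12:89746637-89746836 for DUSP6, chr13:80915251-80915450 for SPRY2, chr5:141704621-141704820 for SPRY4 and chr1:16482605-16482804 for EPHA2. They are given 5′ to 3′ in the direction of transcription, with capitals for GGAA (or TTCC on the other strand), the core of ETS family motifs, and for TGACGTCA, the cyclic AMP response element.
DUSP6: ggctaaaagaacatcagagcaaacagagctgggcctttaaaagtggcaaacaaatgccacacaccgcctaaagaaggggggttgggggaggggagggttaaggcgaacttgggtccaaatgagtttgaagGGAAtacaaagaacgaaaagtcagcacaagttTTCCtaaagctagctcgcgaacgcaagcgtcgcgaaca
SPRY2: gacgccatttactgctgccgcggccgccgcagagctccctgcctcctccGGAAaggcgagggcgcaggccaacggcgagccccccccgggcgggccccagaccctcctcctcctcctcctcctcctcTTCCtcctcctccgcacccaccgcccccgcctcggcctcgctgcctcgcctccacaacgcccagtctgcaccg
SPRY4: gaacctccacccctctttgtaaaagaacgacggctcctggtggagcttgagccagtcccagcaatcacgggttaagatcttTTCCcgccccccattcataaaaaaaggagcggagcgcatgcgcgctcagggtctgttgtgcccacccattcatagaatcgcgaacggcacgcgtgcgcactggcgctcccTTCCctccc
EPHA2: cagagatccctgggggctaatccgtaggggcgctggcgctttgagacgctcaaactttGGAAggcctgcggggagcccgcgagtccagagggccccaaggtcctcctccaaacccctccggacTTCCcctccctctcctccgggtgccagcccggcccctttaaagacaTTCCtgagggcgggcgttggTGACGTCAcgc

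GGAA was found 2 times in each of the DUSP6, SPRY2 and SPRY4 windows and 3 times in that of EPHA2. Across the 23518 genes with such a window the median was 2 matches, and 86.7% of windows held at least 1, so that the 3 lower genes were at the median. TGACGTCA stood in the EPHA2 window alone among these 4 and in 1.51% of all windows. TGANTCA, with any base at N and so broader than the AP-1 site it takes in, was in none of the 4 windows and in 4.61% of all. CACGTG, the E-box, was in none of the 4 and in 5.57% of all. Searches covered both strands, and in the printed windows no match shared bases with another. The NRAS and BRAF windows also held 2 GGAA matches each and none of the other motifs. DUSP4, ETV4 and ETV5 are named only.

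Markers of the labelled cell type differed between the libraries. Of 6 lung adenocarcinoma markers, the lung lineage factor NKX2-1 had 110 FPKM in H2087 and 0.508 in H596, and the napsin gene NAPSA had 21.9 and 0.0645. SFTPA1, a surfactant protein gene, had 82.9 in H2087 and 0 counts in H596, where 3 counts would be 0.0246. KRT7 was high in both at 791 and 608, while SFTPB and SFTPC were at 0.123 or less in both. Of these 6 markers 4 were thus under 0.1 in H596, against 1 in H2087. Of 6 squamous markers, none was under 0.1 in H596 and 3 were at 0 counts in H2087, with TP63 at 0.183 and 55.2 and KRT5 at 0 and 106 in H2087 and H596 (3 counts of KRT5 in H2087 would be 0.0271). SOX2 was high in both lines at 39.1 and 56.5. The summed FPKM of the squamous markers, most of it SOX2 in H2087, was 40.8 in H2087 and 307 in H596. That of the adenocarcinoma markers was 1006 in H2087 and 609 in H596, where KRT7 made up 608. The 4 epithelial markers were present in both lines, with sums of 6527 and 894. Fibroblast, immune and endothelial sums were 3.90, 4.15 and 0.413 in H2087 and 10.7, 0.241 and 0.816 in H596, and DCN made up 9.77 of the fibroblast sum in H596. In H2087, COL1A1 made up 3.89 of the fibroblast sum and CD79A 3.72 of the immune sum. The part of these marker differences in the results on the MAPK genes was not tested.

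H2087 carried the higher level of 8 of the 9 genes. Their FPKM values summed to 228 in H2087 and 46.2 in H596. A gene was counted as past 2-fold where log2(FPKM + 1) differed by at least 1, H596 minus H2087. All 9 genes met the minimum for this count, a mean FPKM of 1. DUSP6, ETV5, ETV4, SPRY4, SPRY2 and NRAS were past 2-fold lower in H596, which is 6 of 9 genes, and 0 were past it higher. In the same comparison 14.2% of the 13048 genes that met this minimum were lower and 18.2% were higher. Medians of the difference were -2.75 for the 9 genes and 0.12 for all 13048. Because the 9 genes were chosen with earlier results of these data known, these contrasts with all genes are descriptions only. On this scale the differences of low genes are understated, so ratios of FPKM are given as well. Fewer cells with a transcript and less of it per cell cannot be told apart in these bulk samples. Each line had 1 library, so nothing here has a replicate check and no test between the lines was possible. The 95% intervals given with each value cover counting error only.

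**Figure D1:**
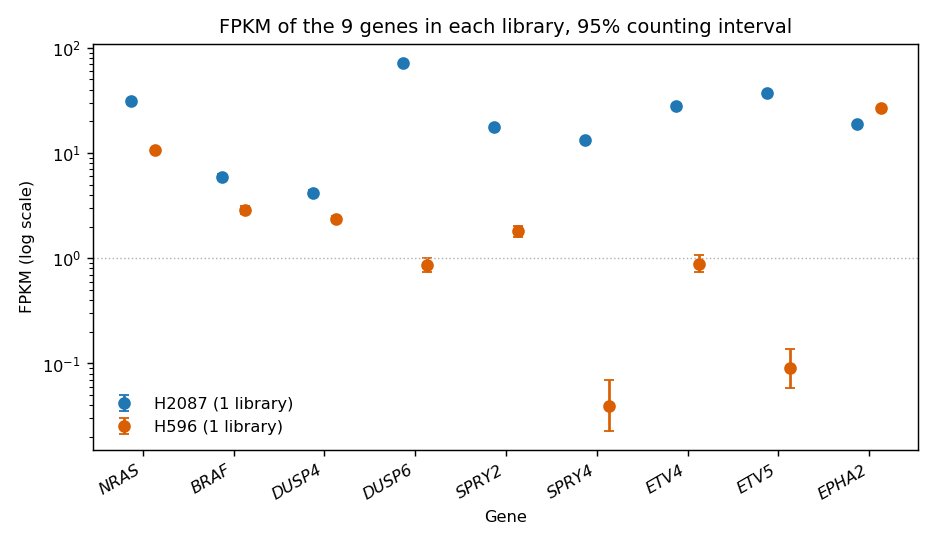
FPKM (log axis) of the 9 genes in H2087 (blue) and H596 (orange), 1 library each, with bars for the 95% counting interval and a dotted line at 1. DUSP6, SPRY4, ETV4 and ETV5 lie between 13.2 and 71.2 in H2087 and under 1 in H596, while EPHA2 is the one gene with the higher point in H596.

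NRAS (gene 4893, chr1:115247085-115259515), the RAS GTPase of the set, had an FPKM of 31.4 (95% interval 30.7 to 32.2) from 6711 counts in H2087. In H596 it was 10.6 (10.2 to 11.0) from 2686 counts. The level was 2.96-fold lower in H596 (2.83 to 3.10), a difference of -1.48 on the log2(FPKM + 1) scale, and the intervals did not overlap. BRAF (gene 673, chr7:140433813-140624564), the RAF kinase that activates MEK, was the lower of this pair in both lines. Its FPKM was 5.88 (5.49 to 6.29) from 830 counts in H2087 and 2.88 (2.63 to 3.15) from 481 counts in H596. This is a ratio of 2.04 (1.82 to 2.29) but a difference of -0.83, short of the 2-fold count. NRAS exceeded BRAF 5.35-fold in H2087 (4.98 to 5.76) and 3.69-fold in H596 (3.35 to 4.08).

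The DUSP genes differed between the lines to unequal degrees. DUSP6 (gene 1848, chr12:89741602-89746636), a cytoplasmic phosphatase selective for ERK, had an FPKM of 71.2 (69.9 to 72.5) from 11559 counts in H2087. It was 0.865 (0.743 to 1.01) from 167 counts in H596, which is 82.3-fold lower (70.6 to 96.4) and a difference of -5.27. Among all genes ordered by FPKM, DUSP6 was in place 1043 in H2087 and in place 12846 in H596. DUSP4 (gene 1846, chr8:29190579-29208267), a nuclear phosphatase of the same family, was low in both lines. Its FPKM was 4.17 (3.94 to 4.43) from 1126 counts in H2087 and 2.35 (2.19 to 2.52) from 752 counts in H596. The ratio was 1.78 (1.62 to 1.95) and the difference -0.63, not past 2-fold. Within a library the order of the 2 genes turned over, as DUSP6 was 17.0-fold above DUSP4 in H2087 (16.0 to 18.1) and 0.368-fold of it in H596 (0.309 to 0.436).

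Both Sprouty genes were past 2-fold lower in H596. SPRY2 (gene 10253, chr13:80910111-80915250), an inhibitor of receptor tyrosine kinase signaling to RAS, had an FPKM of 17.8 (17.0 to 18.6) from 1952 counts in H2087. In H596 it was 1.80 (1.58 to 2.04) from 232 counts, 9.92-fold lower (8.65 to 11.4), with a difference of -2.75. SPRY4 (gene 81848, chr5:141689992-141704620), a paralog with a like role, stood near SPRY2 in H2087 and far below it in H596. Its FPKM was 13.2 (12.8 to 13.7) from 3165 counts in H2087 and 0.0397 (0.0227 to 0.0694) from 12 counts in H596. The ratio was 333, with a counting interval of 190.3 to 645 at these few counts, and the difference was -3.77. SPRY2 was 1.35-fold above SPRY4 in H2087 (1.27 to 1.43) and 45.3-fold above it in H596 (25.4 to 88.9).

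ETV4 and ETV5, transcription factors of the PEA3 group of the ETS family, showed the same direction. ETV5 (gene 2119, chr3:185764106-185826901) had an FPKM of 37.0 (36.1 to 37.8) from 7272 counts in H2087 and 0.0901 (0.0589 to 0.138) from 21 counts in H596. Its ratio was 410.5 (268 to 664), whose interval overlaps that of SPRY4, and its difference was -5.12. ETV4 (gene 2118, chr17:41605211-41623800) had an FPKM of 28.2 (27.3 to 29.2) from 3090 counts in H2087 and 0.884 (0.733 to 1.06) from 110 counts in H596. That is 32.0-fold lower (26.4 to 39.0), with a difference of -3.96. ETV5 led ETV4 1.31-fold in H2087 (1.26 to 1.37), whereas in H596 it was at 0.102-fold of ETV4 (0.0607 to 0.164).

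EPHA2 was the exception in direction. This receptor tyrosine kinase for ephrin-A ligands (gene 1969, chr1:16450832-16482604) had an FPKM of 18.9 (18.3 to 19.6) from 3606 counts in H2087 and 26.7 (26.0 to 27.3) from 6010 counts in H596. It was 1.41-fold higher in H596 (1.35 to 1.47), beyond counting error, but its difference of 0.47 was not past 2-fold. EPHA2 was at 0.266-fold of DUSP6 in H2087 (0.256 to 0.276) and 30.8-fold above it in H596 (26.4 to 36.2).

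Ordered by FPKM in H2087, the 9 genes ran DUSP6, ETV5, NRAS, ETV4, EPHA2, SPRY2, SPRY4, BRAF and DUSP4. Counting intervals of neighbours in this order did not overlap, except those of EPHA2 and SPRY2. In H596 the order was EPHA2, NRAS, BRAF, DUSP4, SPRY2, ETV4, DUSP6, ETV5 and SPRY4. There the intervals of ETV4 and DUSP6 overlapped, as did those of ETV5 and SPRY4. EPHA2 and NRAS were the only 2 of the 9 above an FPKM of 10 in H596, against 7 of 9 in H2087.

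**Figure D2:**
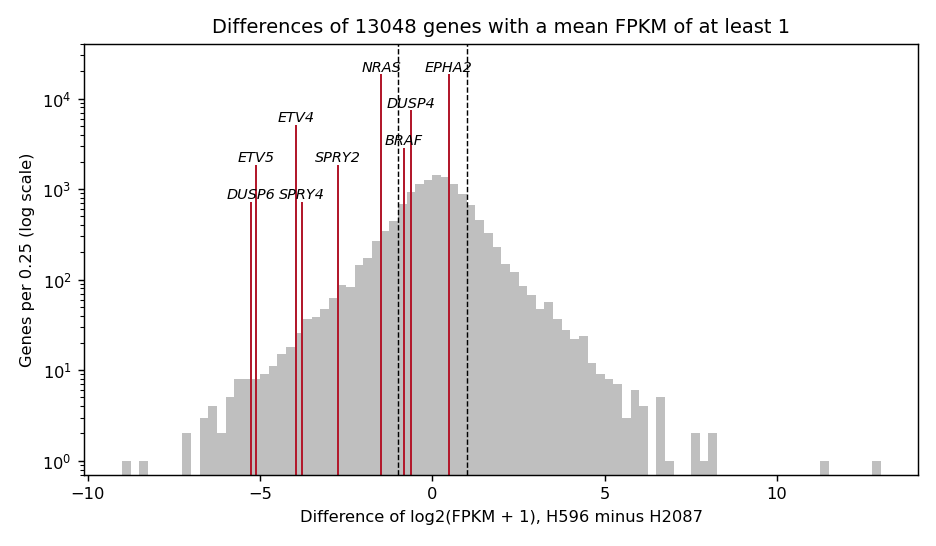
Histogram of log2(FPKM + 1) in H596 minus that in H2087 for 13048 genes (number of genes per bin on a log axis), with red lines at the 9 genes and dashed lines at a 2-fold difference. DUSP6 at -5.27 and ETV5 at -5.12 lie in the far left tail, whereas BRAF, DUSP4 and EPHA2 lie between the dashed lines.

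Against all 13048 genes, 32 had a lower difference than DUSP6 (0.245%) and 39 a lower one than ETV5 (0.299%). ETV4 had 101 genes below it and SPRY4 had 120. For SPRY2 the number was 306 (2.35%), and for NRAS 1083 (8.30%). BRAF and DUSP4 stood further in, with 2289 (17.5%) and 2977 (22.8%) below them. EPHA2 had 8522 (65.3%) below it, on the other side of the median.

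Transcript values showed which RefSeq isoform carried each gene. NRAS, BRAF and ETV5 had 1 listed transcript each. For DUSP4, DUSP6 and SPRY2 a single isoform held at least 97.3% of the gene's FPKM in both lines, and EPHA2 kept its split, with NM_004431 at 79.8% in H2087 and 78.7% in H596. SPRY4 and ETV4 differed in which isoform was listed. NM_001127496 of SPRY4 stood at an FPKM of 9.93 in H2087 (75.1% of the gene) and 0 counts in H596, where 3 counts would be 0.0107. All 12 SPRY4 counts of H596 were assigned to NM_001293289, which had 0.954 (7.22%) in H2087. For ETV4, NM_001079675 had 22.4 in H2087 (79.3%, 2609 counts) and 0 counts in H596, where 3 counts would be 0.0218. The most abundant ETV4 isoform of H596 was NM_001261437, whose FPKM was 0.407 from 46 counts in H2087 and 0.679 from 90 counts in H596. Among the listed transcripts of DUSP6, SPRY2, SPRY4 and ETV4 it was the one with the higher level in H596. These shares are estimates from overlapping isoforms, and for SPRY4 and ETV4 in H596 they rest on 12 and 110 counts.

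**Figure D3:**
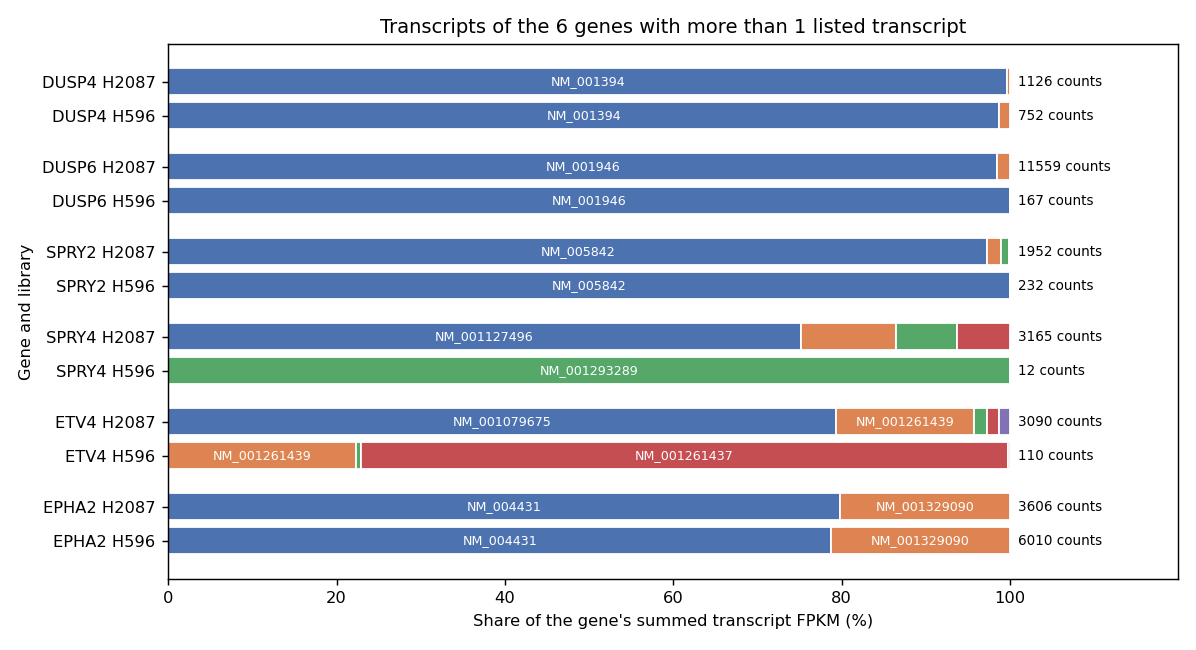
Share (percent) of each transcript in the summed transcript FPKM of the 6 genes with more than 1 listed transcript, per library, with the gene's estimated counts at the right. The colors of SPRY4 and ETV4 change from NM_001127496 and NM_001079675 in H2087 to NM_001293289 and NM_001261437 in H596, while EPHA2 keeps nearly the same split.

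Set among their paralogs, the members took different places in the 2 lines. For the 10 MAPK phosphatase genes the summed FPKM was 186 in H2087 and 77.0 in H596. DUSP5, another nuclear ERK phosphatase, led in H2087 with 43.5% of the sum, and DUSP6 was in place 2 with 38.3%. In H596 the leading gene was DUSP10, a phosphatase that prefers JNK and p38, with 53.9%, and DUSP6 held 1.12% in place 8. DUSP4 was in place 6 in H2087 and in place 7 in H596.

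For the Sprouty genes the sum was 38.4 in H2087 against 7.12 in H596. SPRY2 and SPRY4 held 46.3% and 34.4% in H2087, and SPRY1 the rest. SPRY1 was the most abundant in H596 with 66.6%, and its own FPKM was 7.41 in H2087 and 4.74 in H596, a difference of -0.55 and not past 2-fold. SPRY3 was at 0 counts in H2087, where 3 counts would be 0.00688, and at 0.544 in H596, and is uncertain because it is listed at copies on X and Y.

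For the 3 PEA3 factors it was 74.9 in H2087 against 0.979 in H596. ETV1, the remaining one, had an FPKM of 9.65 from 3034 counts in H2087 and 0.00518 from 3 counts in H596, a ratio of 1864 with a counting interval of 637 to 9042. All 3 were therefore past 2-fold lower in H596. Of the 0.979 left there, 90.3% came from ETV4.

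ARAF, a paralog of BRAF, went the other way, at 22.1 in H2087 and 45.4 in H596. Among 14 Eph receptors EPHA2 took place 2 in H2087, behind EPHB4, with 29.7% of a sum of 63.8, and place 1 in H596 with 32.2% of 82.7.

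**Figure D4:**
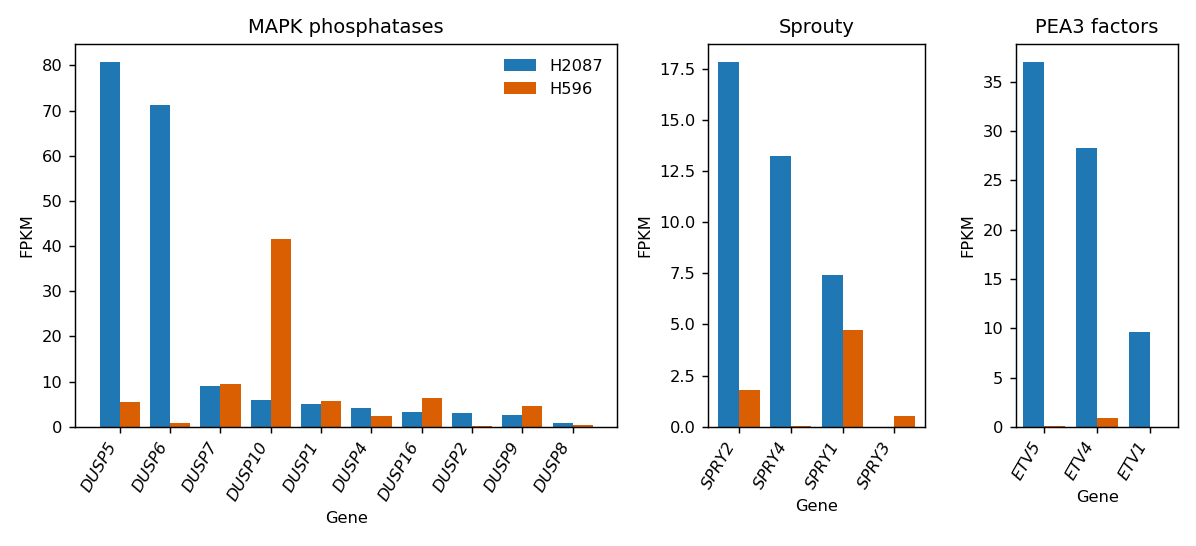
FPKM (linear axes from 0) of the MAPK phosphatase, Sprouty and PEA3 genes in H2087 (blue) and H596 (orange), 1 library each. DUSP5 and DUSP6 stand highest in H2087 and DUSP10 in H596, and the summed PEA3 level is 74.9 in H2087 against 0.979 in H596.

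To place the 9 genes in the rest of the pathway, 70 further genes in 5 lists were counted by the same rule. Of these, 59 met the minimum of 1 in mean FPKM, and 29 of the 59 (49.2%) were past 2-fold, 15 higher and 14 lower in H596. In TPM the split was 18 higher and 14 lower, and with TMM scaling of the counts it was 12 higher and 17 lower. The split of all genes past 2-fold moved likewise, with 56.2% of them higher in the main count, 65.6% in TPM and 50.5% with TMM. Over all genes, 32.4% were past 2-fold in either direction, 18.2% higher and 14.2% lower in H596. These 2 shares belong beside the counts of each list below. The median difference of the 59 was 0.13, close to the 0.12 of all genes.

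The core cascade, from adaptors and exchange factors to ERK, had all 17 genes measured, with 5 higher, 1 lower and a median of 0.39. KSR1, a scaffold for RAF and MEK, had 1.33 FPKM in H2087 and 7.05 in H596 (difference 1.79). SOS2, a RAS exchange factor, had 5.46 and 16.4 (1.43), and PTPN11, the phosphatase SHP2 that relays receptor signals to RAS, had 50.1 and 20.9 (-1.22). ARAF was past 2-fold higher with a difference of 1.01, which passed the limit of 1 by less than the all-gene median of 0.12. The MEK genes MAP2K1 and MAP2K2 were not past 2-fold, with differences of -0.20 and 0.39, and were named after their values were seen.

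Among the inhibitors of RAS and RAF, 14 of 17 were measured at this level, with 1 higher, 6 lower and a median of -0.54. Of all genes, 18.2% were higher and 14.2% lower. ERRFI1, a feedback inhibitor of EGFR family receptors, had an FPKM of 404.7 from 60688 counts in H2087 and 10.02 from 1779 counts in H596, 40.4-fold lower (38.5 to 42.4). SPRED2, a relative of the Sprouty proteins that recruits neurofibromin to RAS, had 26.5 and 5.07 (difference -2.18). Genes of GTPase activating proteins were also past 2-fold lower, with RASAL1 at 5.72 and 0.466 (-2.20) and RASA3 at 4.23 and 0.212 (-2.11). The gene past 2-fold higher was DAB2IP, which was named after its values were seen, at 11.0 and 43.5 (1.89).

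Of the other MAPK phosphatases, 7 of 8 were measured at this level, 1 was higher and 2 were lower, with a median of 0.15. DUSP5 had 80.7 and 5.43 (difference -3.67), DUSP2 had 3.12 and 0.250 (-1.72) and DUSP10 had 5.95 and 41.5 (2.61). The other transcriptional outputs numbered 7, with 1 higher, 3 lower and a median of -0.62. FOSL1, the AP-1 subunit FRA1, had 67.6 and 2.09 (-4.47), 32.3-fold lower (28.1 to 37.4). PHLDA1 had 40.4 and 5.84 (-2.60), and IER3, an early response gene, had 26.2 and 55.3 (1.05). IER3 passed the limit of 1 by less than the all-gene median of 0.12. Thus these outputs did not share 1 direction.

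Other Eph receptors and ephrins held 14 of 21 genes at this level, of which 7 were higher and 2 lower, with a median of 0.93. Of all genes, 18.2% were higher and 14.2% lower. The ligand gene EFNB1 was at 25.8 FPKM in H596, 25.7-fold higher than in H2087 (22.0 to 30.3), and EFNB2 had 2.03 in H2087 and 16.3 in H596 (difference 2.51). The receptor EPHA6 had 0.187 and 4.79 (2.29) and EPHB3 had 2.63 and 9.94 (1.59). EFNA1, a ligand of EPHA2 that was named after its values were seen, had 36.5 and 101.7 (1.45).

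**Figure D5:**
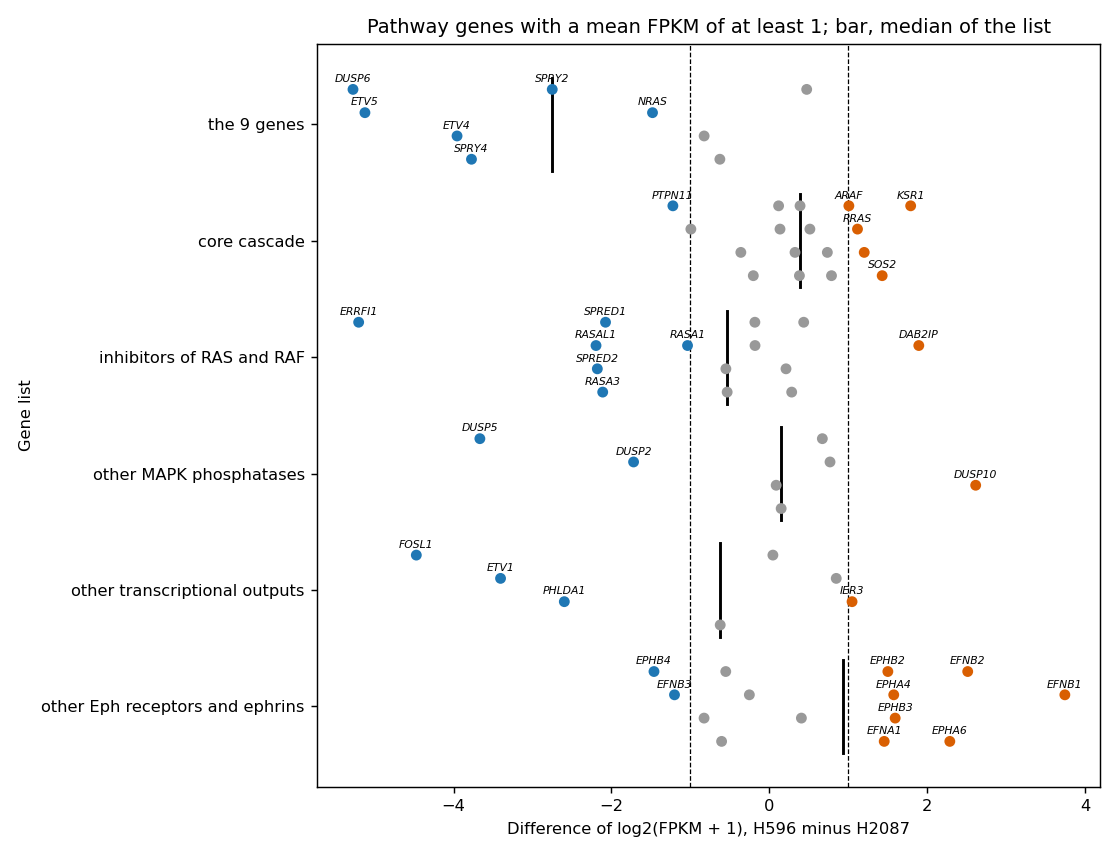
Log2(FPKM + 1) in H596 minus that in H2087 for the 9 genes and 5 pathway lists, 1 point per gene that met the minimum, blue for lower and orange for higher past 2-fold, grey otherwise, with a black bar at the list's median. The bar lies at -2.75 for the 9 genes and between -0.62 and 0.93 for the other lists.

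The nearest genes on the same chromosome were examined to describe the chromosomal surroundings of each member. They covered unlike distances, from chr17:41003201-42201014 for ETV4 to chr13:73282495-88331870 for SPRY2. Over the 20 nearest genes that met the minimum of 1 in mean FPKM, the middle difference (median) was 0.56 around DUSP6, 0.04 around ETV5, 0.21 around SPRY2, -0.37 around ETV4 and -0.65 around SPRY4. None of the 20 had a lower difference than the member in any of these 5 cases. Only 0.245% to 2.35% of all 13048 genes had a lower difference than these members. A count of 0 among 20 genes thus cannot show that the members stood apart from their surroundings. Around NRAS the median was -0.82, 16 of 20 neighbours were lower in H596 and 2 had a lower difference than NRAS itself. The number of neighbours lower in H596 was also 16 around SPRY4. It was 13 around ETV4 and BRAF, 10 around ETV5, 9 around SPRY2, 6 around DUSP6 and EPHA2 and 2 around DUSP4. BRAF had a median of -0.39 and 6 neighbours with a lower difference. DUSP4 lay among genes that were mostly higher in H596 (median 0.59, 18 of 20), and 1 of them had a lower difference than DUSP4. Over all genes the share with a lower difference was 8.30% for NRAS, 17.5% for BRAF and 22.8% for DUSP4. EPHA2 had a median of 0.52 around it, close to its own 0.47.

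Levels most like those of DUSP6 and ETV5, the members with the largest differences of log2(FPKM + 1), were sought among all genes by the distance of the 2 log2(FPKM + 1) values. By FPKM ratio, SPRY4 would stand before DUSP6. For DUSP6 the nearest were SPTB, a spectrin (74.0 in H2087 and 0.770 in H596, distance 0.0944), SNRPN (70.6 and 1.17) and LY6K (59.6 and 1.03). For ETV5 they were HLA-H (37.2 and 0.0516, distance 0.0528), a pseudogene uncertain because of its near-identical copies, PLTP (34.5 and 0.151) and DPYSL3 (35.1 and listed at 0). With 2 libraries such likeness is a description of 2 values only.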

How the data were processed

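RNA-seq of 1 library each of untreated H2087 and H596 cells was used. The authors trimmed reads with Trimmomatic, aligned them to hg19 with HISAT2 2.0.5 and estimated abundance with StringTie 1.3.3b against RefSeq transcripts, per the labels and methods (bcl2fastq 1.8.4 made the read files). The authors deposited estimated counts as whole numbers without stating how they were made, and these were taken as rounded expected counts. The FPKM values deposited by the authors were used without further scaling. Transcript positions come from the same tables. Whether counting used strand is not given in the sources used here, so reads of overlapping genes may be shared.

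Differences were taken as log2(FPKM + 1), H596 minus H2087, and counted as past 2-fold at 1 or more among genes whose mean FPKM reached 1. Each FPKM was given the 95% Wilson interval of its count over the library total, and each ratio an exact (Clopper-Pearson) interval of the 2 counts (scipy 1.17.1). Where a count was 0, 3 counts were taken as the limit, scaled by the library totals. These intervals assume that each count is 1 independent fragment. If mates were counted separately they are too narrow. With 1 library per line no test was run. Alternatives were a pseudocount of 0.1, other filters and folds, TPM, edgeR 4.0.16 TMM scaling in R 4.3.3, centring on the median, and transcript values. The rule, its intervals and calls were run on simulated counts that held counting error only. No spread between libraries was simulated, so this checked the computation and not the calls between the lines.

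The 9 genes and the pathway and marker lists were chosen with earlier results of these data known. Named were all 9 genes, the 4 largest differences past 2-fold per list, paralogs of the 9, every marker list, and the 3 genes most alike for 2 members; some genes that this rule names are not reported here. Promoter windows were read from GRCh37, with strands from GENCODE release 44 mapped to it. Python 3.11.15, numpy 2.4.6, pandas 2.3.3 and matplotlib 3.10.9 were used.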

Additional observations from a re-analysis of the deposited data

How the results depend on the processing

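The number of the 9 genes past 2-fold lower in H596 was 6 and lay between 4 and 8 under the alternatives, with 0 past it higher in every one. It was 4 where the mean FPKM had to reach 10, which left 5 of the 9 genes, beside 14.0% of all genes lower under that filter. It was 5 at 4-fold, beside 4.77% of all genes, and 8 at 1.5-fold, beside 24.0%. BRAF was past 2-fold with a pseudocount of 0.1 (-1.01) and with TMM scaling of the counts (-1.07), each of which gave 7, beside 16.3% and 17.4% of all genes. Every one of the 9 genes kept its direction in all 6 alternatives for its difference. Much of this was fixed in advance, because a change of pseudocount cannot turn a direction and TPM only rescales each library. Centring moved each difference by 0.12, less than the smallest one (EPHA2, 0.47). The kept directions are therefore no check on the difference between the lines. The widest ranges were -7.61 to -5.12 for ETV5 and -6.57 to -3.39 for SPRY4. Among these alternatives the sum over transcripts gave the main value for all 9 genes. The highest single transcript gave it for NRAS, BRAF and ETV5, which have 1 transcript each. Of the 54 values under the alternatives, 25 lay further from the main value than the counting interval of the log2 FPKM ratio reaches. For low genes that interval is wider than counting error on the log2(FPKM + 1) scale, so 25 may be too low a number. The pathway genes past 2-fold numbered 29. They numbered 18 of 30 (10 higher, 8 lower) with a mean FPKM of at least 10, beside 1045 higher and 941 lower of 6708 genes. At 4-fold they numbered 13 of 59 (4 higher, 9 lower), beside 700 higher and 622 lower of 13048 genes. The pathway genes' split of 15 higher and 14 lower was 18 and 14 in TPM, 12 and 17 with TMM and 12 and 15 with centring. Of all genes past 2-fold, 56.2% were higher in the main count, 65.6% in TPM, 50.5% with TMM and 49.1% with centring. The median difference of all genes was 0.12, 0.30 in TPM and 0.01 with TMM. No paired analysis was possible because there was 1 library for H2087 and 1 for H596, and none could be left out for the same reason. Depth limits the ratios of SPRY4 and ETV5, which rest on 12 and 21 counts in H596, and the isoform shares of ETV4 and SPRY4 there.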
